A study of Mus musculus with 6 samples.

Results

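The tumor necrosis factor (TNF) superfamily is a set of related ligands, and the TNF receptor superfamily is the set of cell-surface receptors that bind them. Members were chosen by name from the authors' deposited gene table, as every protein-coding gene whose symbol begins with Tnfsf or Tnfrsf and a number, together with Tnf, Lta, Ltb, Ltbr, Cd27, Cd40, Cd40lg and Cd70. The rule found 39 of 39527 genes, 16 ligands and 23 receptors, and used no measured value. It left out 1 symbol by gene type, the antisense gene Tnfsf13os. It also does not reach relatives with other names, such as Fas, Relt and the ectodysplasin genes.

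The study sequenced RNA of group 2 innate lymphoid cells (ILC2s), tissue lymphocytes without rearranged antigen receptors that make type 2 cytokines, sorted from mouse lung. The KO group held 3 samples of genotype R5/+ LKB1f/f, with floxed alleles of the kinase gene LKB1 (symbol Stk11), and the WT group held 3 samples of genotype R5/+. All 6 samples were from mice given IL-33, an epithelial cytokine that activates ILC2s, for 4 days. Whether the authors' fit also held libraries of untreated cells is not stated. Cells of 3 to 4 mice were pooled for each sample, both groups carried the R5 allele, and the series title names ILC2 exhaustion and metastasis of lung cancer as its subject. The labels do not describe the recombinase behind the deletion, the age of the mice or the sorting gate.

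The values come from the authors' own comparison of the genotypes, which gives each gene 1 mean over libraries, 1 log2 fold change and 1 standard error (SE). Columns of single libraries could not be matched to the samples and were not used, so that no value per sample, no mean per genotype and no depth per sample stands below. The direction of the fold change is not stated, and signs are therefore given as deposited. Stk11 (ENSMUSG00000003068, mm10 chromosome 10, 80115803 to 80130682), the floxed gene, had a log2 fold change of -1.34 ± 0.30 in the authors' deposited table. If deletion lowered its transcripts, negative values are lower in KO. The order in which the deposit names the genotypes, WT before KO, would read the other way, and no source used here settles this. The word called below means an adjusted p under 0.05 in the authors' deposited table, whose column names are those of the DESeq2 tool.

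Most ligands of this superfamily are trimers made as membrane proteins, and several are released by proteases. Binding clusters the receptors, whose tails recruit TRAF adaptors or, in the death receptors, death domain proteins. The first route leads to NF-kB and MAP kinase signalling, cell survival and costimulation of lymphocytes, and the second can lead to caspase-8 and cell death. In the lung, ILC2s are known to respond to TL1A through DR3 (Tnfrsf25), to carry GITR (Tnfrsf18), and to display OX40L (Tnfsf4) and GITRL (Tnfsf18) to T cells.

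Promoter sequences from RefSeq (GRCm38.p6), each running 250 bases before to 50 bases after a start site, were available for 29 of the 39 members as 33 windows. They were searched on both strands for the NF-kB consensus decamer and for the AP-1 motif TGANTCA, where N is any base. Of all 32851 promoter windows of the same length, 8.46% held the NF-kB consensus and 7.81% held AP-1. Of the members' 33 windows, 4 held the NF-kB consensus (Ltb, Tnfrsf8, Tnfrsf9 and Tnfrsf25) and 6 held AP-1. The AP-1 windows belonged to 5 genes, Tnfrsf8, Tnfrsf9, Tnfsf13, Tnfsf13b and Tnfsf14. The overlapping windows of Tnfsf13b held the same match, which is thus counted more than once. The 5 windows below are shown because Tnfrsf9 and Tnfrsf8 are the called members whose windows held either motif, and carried opposite signs, and because Ltb, Tnf and Lta lie side by side and differ in their calls. Each is written 5′ to 3′ on the gene's strand, with motif matches in capitals.
Tnfrsf9, downstream start, chr4:150927749-150928048, plus strand: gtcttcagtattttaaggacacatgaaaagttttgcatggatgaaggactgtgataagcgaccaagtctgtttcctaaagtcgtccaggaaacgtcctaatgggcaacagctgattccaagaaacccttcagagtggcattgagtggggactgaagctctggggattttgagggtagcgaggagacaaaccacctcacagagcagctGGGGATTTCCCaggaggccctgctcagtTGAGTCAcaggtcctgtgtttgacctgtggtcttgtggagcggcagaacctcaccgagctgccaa
Tnfrsf8, chr4:145315115-145315414, minus strand: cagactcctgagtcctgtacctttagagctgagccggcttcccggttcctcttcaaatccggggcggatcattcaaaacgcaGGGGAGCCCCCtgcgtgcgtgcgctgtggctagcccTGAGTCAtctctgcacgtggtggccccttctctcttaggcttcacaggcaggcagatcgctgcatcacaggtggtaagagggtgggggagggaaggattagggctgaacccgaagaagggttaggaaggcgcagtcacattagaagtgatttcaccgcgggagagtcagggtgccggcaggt
Ltb, chr17:35194257-35194556, plus strand: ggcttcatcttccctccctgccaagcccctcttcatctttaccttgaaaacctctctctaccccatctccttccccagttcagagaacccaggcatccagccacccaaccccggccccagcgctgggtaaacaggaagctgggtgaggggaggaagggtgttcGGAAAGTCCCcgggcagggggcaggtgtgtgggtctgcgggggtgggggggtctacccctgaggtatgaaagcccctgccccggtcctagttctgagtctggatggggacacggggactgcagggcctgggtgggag
Tnf, chr17:35201958-35202257, minus strand: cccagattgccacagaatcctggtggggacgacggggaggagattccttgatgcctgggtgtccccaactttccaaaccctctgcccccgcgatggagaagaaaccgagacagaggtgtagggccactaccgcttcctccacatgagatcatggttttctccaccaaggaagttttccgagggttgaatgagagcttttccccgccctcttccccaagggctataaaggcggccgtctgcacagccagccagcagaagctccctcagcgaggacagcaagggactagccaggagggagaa
Lta, chr17:35205302-35205601, minus strand: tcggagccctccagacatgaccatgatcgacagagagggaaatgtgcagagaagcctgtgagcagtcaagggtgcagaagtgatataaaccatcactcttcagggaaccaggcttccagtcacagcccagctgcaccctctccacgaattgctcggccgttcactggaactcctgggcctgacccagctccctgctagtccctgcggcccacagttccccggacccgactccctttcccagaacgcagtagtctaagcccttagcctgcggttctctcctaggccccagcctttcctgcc
Positions here count from the start site, with negative numbers before it. The Tnfrsf9 window held 2 overlapping NF-kB matches, beginning at -43 and -42, and an AP-1 match at -15, while the window of its other start site held neither motif. The Tnfrsf8 window held the same motifs farther out, with overlapping NF-kB matches at -168 and -167 and AP-1 at -132. Both motifs therefore stood together in the promoter of a positive and of a negative member. Among the neighbours on chromosome 17, the Ltb window held 1 NF-kB match, at -87 on the opposite strand, and the Tnf and Lta windows held neither motif. A match is only a run of letters, and no match says only that these letters are not in the window.

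Of the 39 members, 37 had an adjusted p, and 13 of these (35.1%) were called, 7 positive and 6 negative. Over all 14961 genes with an adjusted p, 24.5% were called, 11.0% positive and 13.5% negative, and over the protein-coding genes alone 26.0% were called. No test of the difference between these shares was made. The median log2 fold change was 0.12 over the 37 members and -0.0056 over all tested genes, and the median size of change regardless of sign was 0.56 and 0.38 on the log2 scale in the authors' deposited table. Calls with a change of at least 2-fold numbered 8 among the 37 members, 3 positive and 5 negative. On the same base of genes with an adjusted p, 1142 of 14961 (7.63%) were called at this size. These counts were not tested against each other. The 2 members without an adjusted p were Tnfsf13 and Tnfrsf11b, with means of 1.57 and 7.55 normalized counts in the authors' deposited table. In bulk RNA of sorted cells, fewer cells that express a gene and less RNA per cell cannot be told apart.

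**Figure D1:**
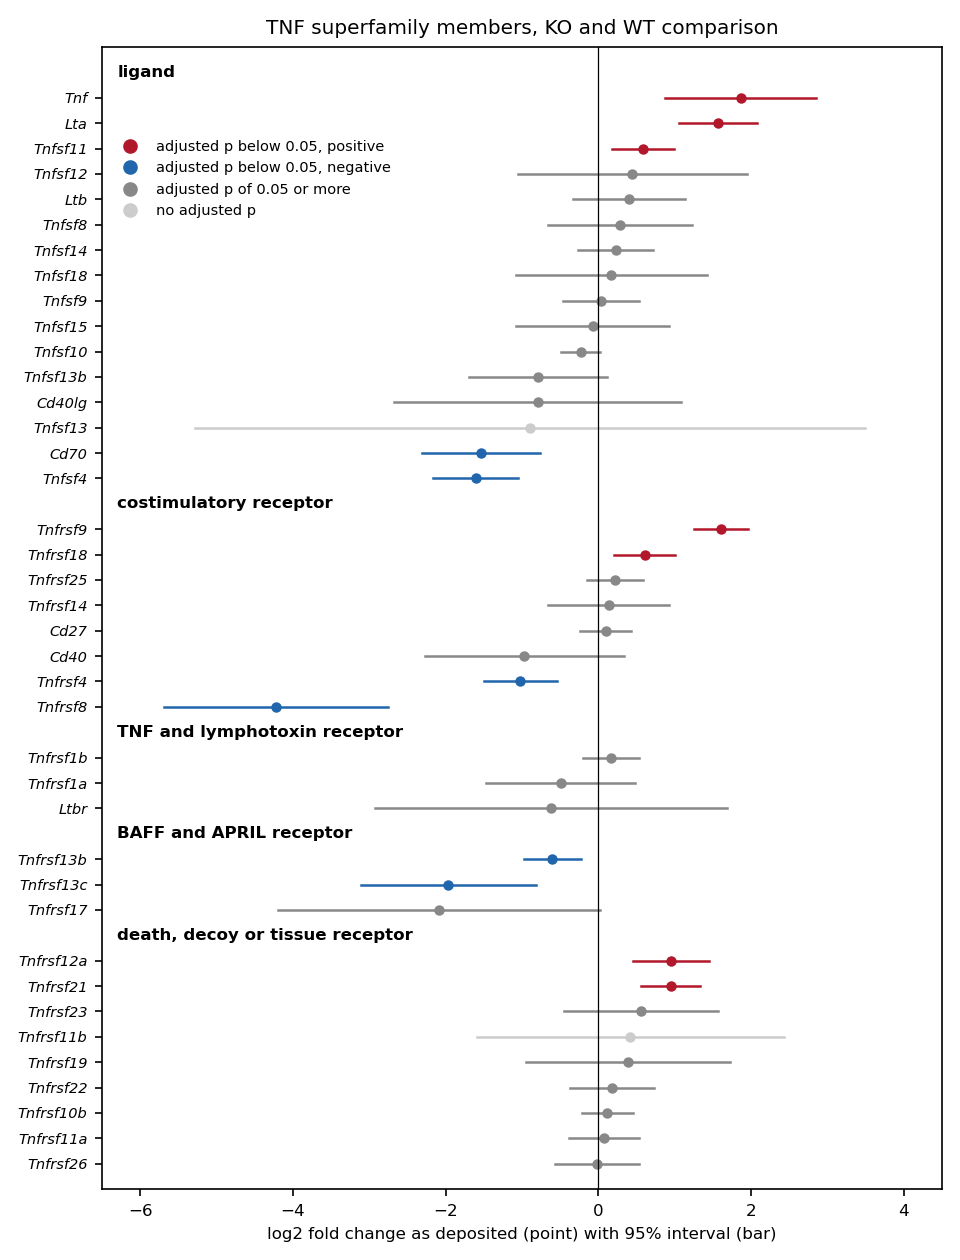
Log2 fold change of each of the 39 members as deposited (points) with its 95% interval (bars), grouped by role and sorted within a role, with colour for the call and sign. The 7 positive and 6 negative called members are spread over ligands and receptors, and Tnfrsf8 lies farthest from 0 at -4.22.

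Levels were compared between genes as normalized counts per kilobase of exonic sequence, over all libraries of the fit. Ltb stood first at 5221 per kilobase, followed by Tnfrsf1b at 3342, Tnfrsf18 at 2427, Tnfrsf25 at 1792 and Tnfrsf9 at 1671, all computed from the means in the authors' deposited table. Receptors of costimulation and of TNF thus made up 4 of the 5 members with the highest level. For scale, the ILC2 genes Gata3 and Il1rl1, which encodes the IL-33 receptor, stood at 11200 and 2457 per kilobase on the same measure from the authors' deposited table. All 12 listed ILC2 markers were present, with Thy1 lowest at 97.2 per kilobase in values from the authors' deposited table. Of these markers 6 were called, Kit (1.53) and Gata3 (0.63) positive and Il13 (-1.06), Arg1 (-0.78), Klrg1 (-0.44) and Thy1 (-1.98) negative, in the authors' deposited table. Thy1 was not called at a threshold of 0.01 or without the filter on low means, and neither Thy1 nor Klrg1 was called with length and GC trends removed. Calls were made at every level: 3 of the 8 members with a mean of at least 1000 normalized counts were called, all positive, 8 of 17 between 100 and 1000, and 2 of 12 tested members below 100, both negative. No library spread stands behind this order of levels, so that neighbours in it cannot be separated.

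**Figure D2:**
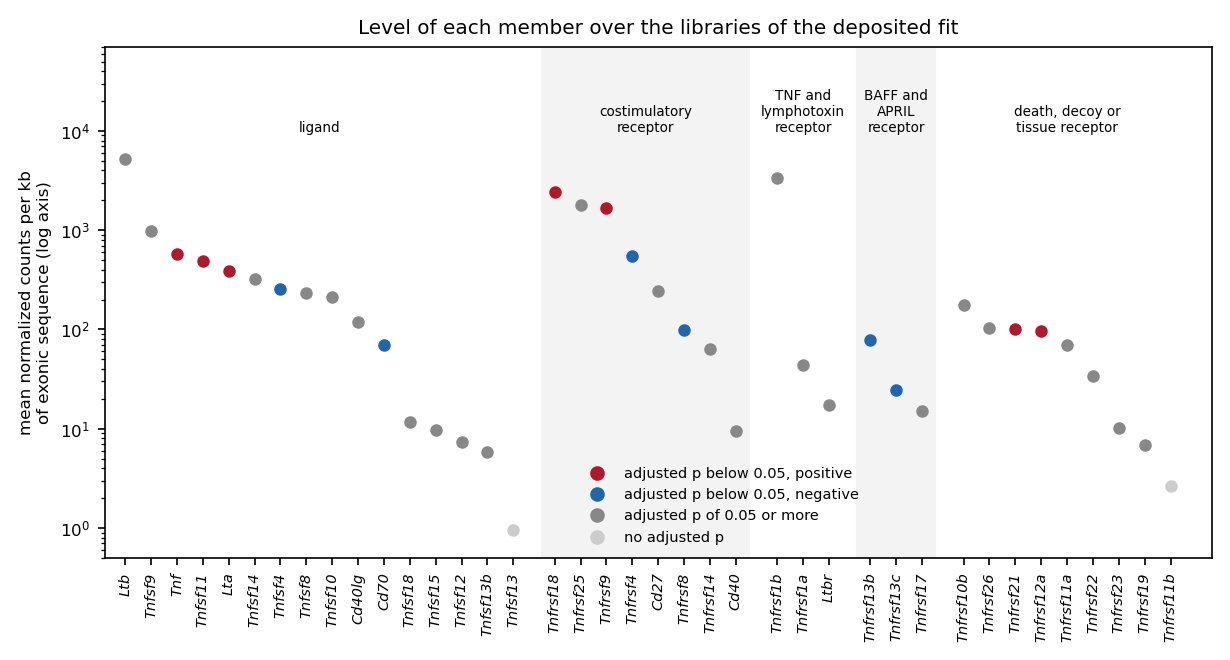
Mean normalized counts per kilobase of exonic sequence over the libraries of the authors' fit (log axis) for each of the 39 members, grouped by role, with colour for the call and sign. Ltb, Tnfrsf1b, Tnfrsf18, Tnfrsf25 and Tnfrsf9 lie above 1000 per kilobase, and Tnfsf13 lies lowest.

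Ligands came out on both sides (coordinates of called members are on mm10). Of 15 tested ligands, 5 were called: Tnf, Lta and Tnfsf11 were positive, and Tnfsf4 and Cd70 were negative. Tnf (ENSMUSG00000024401, chromosome 17, 35199381 to 35202007), the inflammatory cytokine that names the family, had the largest positive value of all members, a log2 fold change of 1.87 ± 0.50, or 3.64-fold, with an adjusted p value of 0.00193 and a mean normalized count of 935 in the authors' deposited table. Its standard error was wide for its level, larger than in 99.2% of genes of like mean, whose median was 0.16, and its 95% interval ran from 0.88 to 2.85, around the value in the authors' deposited table. Lta (ENSMUSG00000024402, chromosome 17, 35203165 to 35205351), lymphotoxin alpha, which binds the same receptors as TNF when secreted, had 1.57 ± 0.26 with an adjusted p value of 1.26e-07 and a mean normalized count of 539 in the authors' deposited table. Ltb, lymphotoxin beta, which holds lymphotoxin alpha at the membrane, was not called at 0.40 ± 0.37 and a mean normalized count of 7915 in the authors' deposited table. The gene that encodes the membrane anchor therefore had the higher level, and the gene of the soluble partner had the call.

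Tnfsf11 (ENSMUSG00000022015, chromosome 14, 78277445 to 78308043) encodes RANKL, the ligand of RANK that drives osteoclast formation and lymph node development. It had a log2 fold change of 0.58 ± 0.21, a mean normalized count of 1102 and an adjusted p value of 0.0246 in the authors' deposited table, and this call was lost both at a threshold of 0.01 and without the filter on low means. The ligands on the negative side are both costimulatory. Tnfsf4 (ENSMUSG00000026700, chromosome 1, 161395409 to 161418410), the OX40 ligand, had -1.61 ± 0.28, or 3.05-fold in size, with a mean normalized count of 476 and an adjusted p value of 6.04e-07 in the authors' deposited table. Cd70 (ENSMUSG00000019489, chromosome 17, 57145997 to 57149777), the ligand of CD27, had -1.54 ± 0.40 with an adjusted p value of 0.00102 at a low mean of 59.1 normalized counts in the authors' deposited table.

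The ligands that were not called differed in how closely their values were bounded. Tnfsf9, which encodes the ligand of 4-1BB, had 0.03 ± 0.25 and a 95% interval of -0.46 to 0.53 at a mean normalized count of 1252, and Tnfsf10, which encodes the apoptosis ligand TRAIL, had -0.23 ± 0.13 and -0.49 to 0.03 at a mean of 1110, from the authors' deposited table. These intervals, with that of Tnfsf14 (LIGHT, at 0.22), lay within 2-fold in either direction, on values from the authors' deposited table. The noncoding gene Gm11110 overlaps 14.9% of the exonic bases of Tnfsf9 on the opposite strand. It had 0.53 without a call, at a mean normalized count of 140 in the authors' deposited table. How strand was handled is not given here, so that reads of Tnfsf9 and of Gm11110 cannot be told apart. The CD30 ligand gene Tnfsf8 had 0.28 ± 0.48 at a mean normalized count of 884, with an error larger than in 99.0% of genes of like mean, by the authors' deposited table. Cd40lg, Tnfsf13b (BAFF), Tnfsf12 (TWEAK), Tnfsf15 (TL1A) and Tnfsf18 (GITRL) had errors between 0.46 and 0.96 and means of at most 150 normalized counts in the authors' deposited table, and their values ran from -0.80 to 0.44. A 2-fold difference in the negative direction lay inside each of their intervals.

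Among the 8 costimulatory receptors, which are best known for sustaining activated lymphocytes, 2 were positive, 2 were negative and 4 were not called. Tnfrsf9 (ENSMUSG00000028965, chromosome 4, 150914562 to 150946102), which encodes 4-1BB, had the smallest adjusted p of all members, 1.64e-16, with a log2 fold change of 1.60 ± 0.18, or 3.03-fold, and a mean normalized count of 4548 in the authors' deposited table. Tnfrsf8 (ENSMUSG00000028602, chromosome 4, 145267137 to 145315164), which encodes CD30, had the largest change of all members in size, -4.22 ± 0.75, or 18.7-fold, with an adjusted p value of 6.36e-07 and a mean normalized count of 342 in the authors' deposited table. These receptors moved in opposite directions, each far beyond its standard error. The error of Tnfrsf8 was larger than in 97.6% of genes of like mean, whose median was 0.20 by the authors' deposited table, and its 95% interval ran from -5.69 to -2.76.

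Tnfrsf18 (ENSMUSG00000041954, chromosome 4, 156026164 to 156028895), which encodes GITR, had a log2 fold change of 0.60 ± 0.20, a mean normalized count of 3698 and an adjusted p value of 0.0153 in the authors' deposited table, and this call was lost at a threshold of 0.01. The antisense gene Gm16008 overlaps 27.2% of its exonic bases and had a value of 0.98 with an adjusted p value of 0.00843 in the authors' deposited table. How strand was handled is not given here, and the labels do not say that the cDNA kit marks it, so that reads of Tnfrsf18 and of Gm16008 cannot be told apart. Tnfrsf4 (ENSMUSG00000029075, chromosome 4, 156013843 to 156016612), which encodes OX40, had -1.02 ± 0.24 with a mean normalized count of 747 and an adjusted p value of 0.000379 in the authors' deposited table. Of the uncalled receptors in this group, Tnfrsf25 (DR3) stood at 0.22 ± 0.19 with a mean normalized count of 4080 and Cd27 at 0.09 ± 0.17 with a mean of 564 in the authors' deposited table. Their 95% intervals, -0.14 to 0.58 for Tnfrsf25 and -0.24 to 0.43 for Cd27 around the values in the authors' deposited table, lay within 2-fold. Tnfrsf14 (HVEM) and Cd40 had means of 92.2 and 32.5 normalized counts and values of 0.13 ± 0.40 and -0.97 ± 0.67 in the authors' deposited table.

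None of the 3 receptors of TNF and lymphotoxin was called, although Tnf and Lta were. Tnfrsf1b encodes TNFR2, the receptor without a death domain that is restricted mostly to blood and endothelial cells. It had the highest mean of all members, 12759 normalized counts, and a log2 fold change of 0.16 ± 0.19 with a 95% interval of -0.21 to 0.53, from the authors' deposited table. Tnfrsf1a, which encodes the death domain receptor TNFR1, had a mean normalized count of 115 and -0.50 ± 0.50, and Ltbr, the lymphotoxin beta receptor of stromal and myeloid cells, had 40.6 and -0.62 ± 1.18, in the authors' deposited table. TNFR2 was thus the receptor gene of this group with the high level and the narrow interval, and the intervals of the other two held 2-fold differences in both directions for Ltbr and in the negative direction for Tnfrsf1a.

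The 3 receptors of BAFF and APRIL, which support B cells and plasma cells, all had values below 0, and 2 were called. Tnfrsf13c (ENSMUSG00000068105, chromosome 15, 82221743 to 82224369), the BAFF receptor of B cells, had -1.97 ± 0.58 with a mean normalized count of 50.1 and an adjusted p value of 0.00545 in the authors' deposited table. Tnfrsf13b (ENSMUSG00000010142, chromosome 11, 61126755 to 61149372), which encodes TACI, had -0.60 ± 0.19 with a mean of 222 and an adjusted p value of 0.00882, and Tnfrsf17, the plasma cell receptor BCMA, had -2.09 ± 1.08 with a mean of 12.4 and an adjusted p value of 0.150, in the authors' deposited table. Transcripts of B and plasma cells were also present. All 7 tested B and plasma cell markers lay below 0, and 4 were called: Mzb1 (-3.85), Jchain (-3.57), Cd79b (-0.88) and Ighm (-1.56), as the authors' deposited table gives them. At a threshold of 0.01, Cd79b alone of these was called, and Jchain was also not called without the filter on low means or with length and GC trends removed. The B cell transcription factor gene Pax5 had a mean normalized count of 9.91 in the authors' deposited table and no adjusted p. The part of B and plasma cell RNA in the values of these receptors was not tested.

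Most markers of other cell types also lay below 0. Of 49 tested markers of other lung and blood cells, the 7 of B and plasma cells included, 42 lay below 0, with a median log2 fold change of -0.75. Of these 49 markers 14 (28.6%) were called, all negative, in the authors' deposited table. Over all tested genes 24.5% were called, 13.5% negative, and 7537 of 14961 lay below 0. The 49 include the regulatory T cell marker Il2ra (-0.07, not called), which also stands among the ILC2 markers. None of the markers was listed at a mean of 0, and the summed level of a list in each genotype was not available here. Among the called markers were the dendritic cell genes Ccr7 (-2.57), H2-Ab1 (-1.74) and Zbtb46 (-1.03), the T cell genes Trat1 (-2.65) and Cd3g (-0.66), the regulatory T cell gene Ctla4 (-2.15) and the cytotoxic gene Gzma (-3.94), in the authors' deposited table, some of which ILC2s can express themselves. The remaining dendritic cell genes had no call: Xcr1 had 0.32 ± 0.19 at a mean normalized count of 499, Flt3 and Cd209a had -0.32 and -0.21, and Clec9a and Siglech, without an adjusted p, had 0.82 and 0.32, by the authors' deposited table. The T cell gene Cd3e, by contrast, had 0.08 ± 0.64 at a mean normalized count of 233, and Foxp3, the defining gene of regulatory T cells, had 0.51 ± 0.66 at a mean of 22.4, in the authors' deposited table. Further called markers were C1qa of macrophages (-2.63), Ngp of neutrophils (-3.82) and Pdgfrb of fibroblasts (-1.63), and Sftpc of epithelial cells and Lyz2 of macrophages, though not called, reached 7344 and 3396 normalized counts per kilobase on the means of the authors' deposited table. The epithelial gene Scgb1a1 stood above Sftpc, at 7654 per kilobase, with a log2 fold change of -3.15 in the authors' deposited table. Scgb1a1 had neither a p-value nor an adjusted p, and is therefore not among the tested markers. Why its p-value is missing was not tested. Besides the 4 of 7 B and plasma cell markers, 3 of 6 dendritic, 1 of 8 macrophage, 2 of 6 T cell, 1 of 4 regulatory T, 1 of 2 NK, 1 of 4 neutrophil and 1 of 4 fibroblast markers were called, and 0 of 2 mast cell, 0 of 3 epithelial and 0 of 3 endothelial markers. The uncalled markers among the 3 smallest p of a list with a call were C1qb (-2.00), Mrc1 (-1.64), Trac (-0.78), Ikzf2 (-0.33), S100a8 (-1.14), S100a9 (-0.99), Pdgfra (-1.57), Col1a1 (-1.59), Ncr1 (0.52) and Klrb1c (0.19, without an adjusted p), beside Foxp3, in the authors' deposited table. In lists without a call, the smallest p belonged to Pecam1 (-0.32), Sftpc (-1.18) and the mast cell gene Ms4a2 (2.58 ± 1.74, at a mean normalized count of 3.52 and without an adjusted p), by the authors' deposited table. The abundant mast cell gene Cpa3 had -0.03 ± 0.23 in the authors' deposited table. Ngp was not called at a threshold of 0.01 or without the filter on low means. The part of these cells in the negative members, which include Tnfrsf8, Tnfsf4, Tnfrsf4 and Cd70, was not tested.

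The remaining receptors signal death, act as decoys or are known mostly from tissue cells. Of 8 tested, 2 were called, both positive, and 6 were not called. Tnfrsf21 (ENSMUSG00000023915, chromosome 17, 43016555 to 43089189), the death receptor DR6, had 0.95 ± 0.20 with a mean normalized count of 417 and an adjusted p value of 3.89e-05 in the authors' deposited table. Tnfrsf12a (ENSMUSG00000023905, chromosome 17, 23675445 to 23677468), the TWEAK receptor Fn14 of injured tissue, had 0.95 ± 0.25 with a mean of 185 and an adjusted p value of 0.00157 in the authors' deposited table. Both lay just under 2-fold, at 1.93-fold each, and so left the count once a 2-fold minimum was set. Tnfrsf10b, the TRAIL death receptor, had 0.12 ± 0.17 at a mean of 972, and Tnfrsf11a, which encodes RANK, had 0.08 ± 0.23 at a mean of 415, in the authors' deposited table. The decoy receptor genes Tnfrsf22 and Tnfrsf23 and their neighbour Tnfrsf26 had 0.18, 0.56 and -0.02 in the authors' deposited table. Reads shared between these paralogs may have been split by the counting, which is not given here, and the value of Tnfrsf26 changed sign with the scaling. Tnfrsf19 (TROY) had 0.39 ± 0.68 at a mean normalized count of 32.4, and Tnfrsf11b, the secreted RANKL decoy osteoprotegerin, had 0.42 ± 1.02 with no adjusted p, in the authors' deposited table.

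Ligands and receptors were then set side by side as 24 known pairs, of which 21 had an adjusted p on both sides. In 1 pair both partners were called, in 13 pairs 1 partner was called, and in 7 pairs neither was. For scale, 35.1% of the tested members and 24.5% of all tested genes were called. The pair counts were not tested against these shares. The pair called on both sides was Tnfsf4 with Tnfrsf4 (OX40 ligand and OX40), at -1.61 for the ligand and -1.02 for the receptor in the authors' deposited table. The 13 pairs with 1 call were divided into 7 with the ligand called, among them Tnf with both of its receptors, Tnfsf11 with Tnfrsf11a, and Cd70 with Cd27, and 6 with the receptor called, among them Tnfrsf9 with Tnfsf9 and Tnfrsf8 with Tnfsf8. A call in 1 partner alone does not show that the partners differ, and that difference was not tested. A gene that stands in several pairs is counted in each of them.

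**Figure D3:**
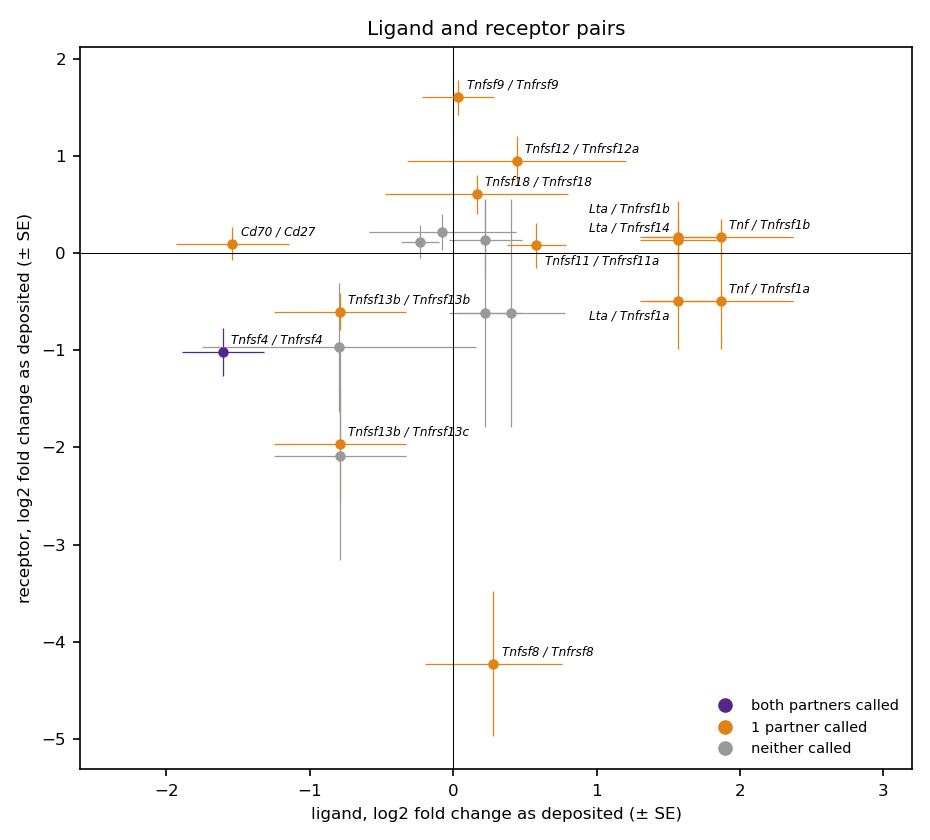
Log2 fold change of the receptor (vertical axis) against that of its ligand (horizontal axis) in the authors' deposited table, with standard errors as bars, for the 21 pairs with an adjusted p on both sides, and names at pairs with a called partner. Tnfsf4 with Tnfrsf4 is called on both sides, and Tnfsf8 with Tnfrsf8 lies lowest.

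The 2 sides of a pair also differed in level. The receptor stood far above its ligand for GITR, with 208 times more normalized counts per kilobase for Tnfrsf18 than for Tnfsf18, and for DR3, with 187 times more for Tnfrsf25 than for Tnfsf15, on the means of the authors' deposited table. The opposite held for lymphotoxin, where Ltbr stood at 0.0033 times the level of Ltb per kilobase on those means from the authors' deposited table. Between these extremes, Tnfrsf9 stood at 1.72 times the level of Tnfsf9 and Tnfrsf4 at 2.12 times that of Tnfsf4, and Tnfrsf1b at 5.86 times but Tnfrsf1a at 0.0776 times that of Tnf, per kilobase on the means of the authors' deposited table. In this bulk RNA, receptor transcripts therefore exceeded those of the matching ligand for GITR and DR3, and ligand transcripts exceeded those of the receptor for lymphotoxin beta. The lower partners Tnfsf18, Tnfsf15 and Ltbr had means of only 24.1, 32.1 and 40.6 normalized counts in the authors' deposited table. Markers of other cell types were also detected, and reads of Tnfrsf18 cannot be told apart from those of Gm16008.

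Many members lie next to each other in the genome. With a limit of 100 kilobases between neighbours, 22 members fell into 9 clusters and 17 into none, and 5 clusters held a called member. The genes Tnfrsf4 and Tnfrsf18, 9.55 kilobases apart on chromosome 4 (156013843 to 156028895, mm10), were called with opposite signs, the one cluster of the 9 in which this was so. On chromosome 17 (35194439 to 35205351), Ltb, Tnf and Lta share 10.9 kilobases, with 1.16 kilobases between Tnf and Lta, which were both positive, and 3.06 kilobases between Tnf and the uncalled Ltb. Farther along chromosome 17, Cd70 was negative at -1.54, while its neighbours Tnfsf9 and Tnfsf14 stood at 0.03 and 0.22 in the authors' deposited table. On chromosome 4, Tnfrsf8 lies 20.3 kilobases from Tnfrsf1b, which had 0.16 against its -4.22 in the authors' deposited table. The cluster of Tnfsf13 and Tnfsf12 on chromosome 11 cannot be read by gene, since the read-through gene Tnfsfm13 shares 60.0% of the exonic bases of Tnfsf13 and 48.3% of those of Tnfsf12.

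**Figure D4:**
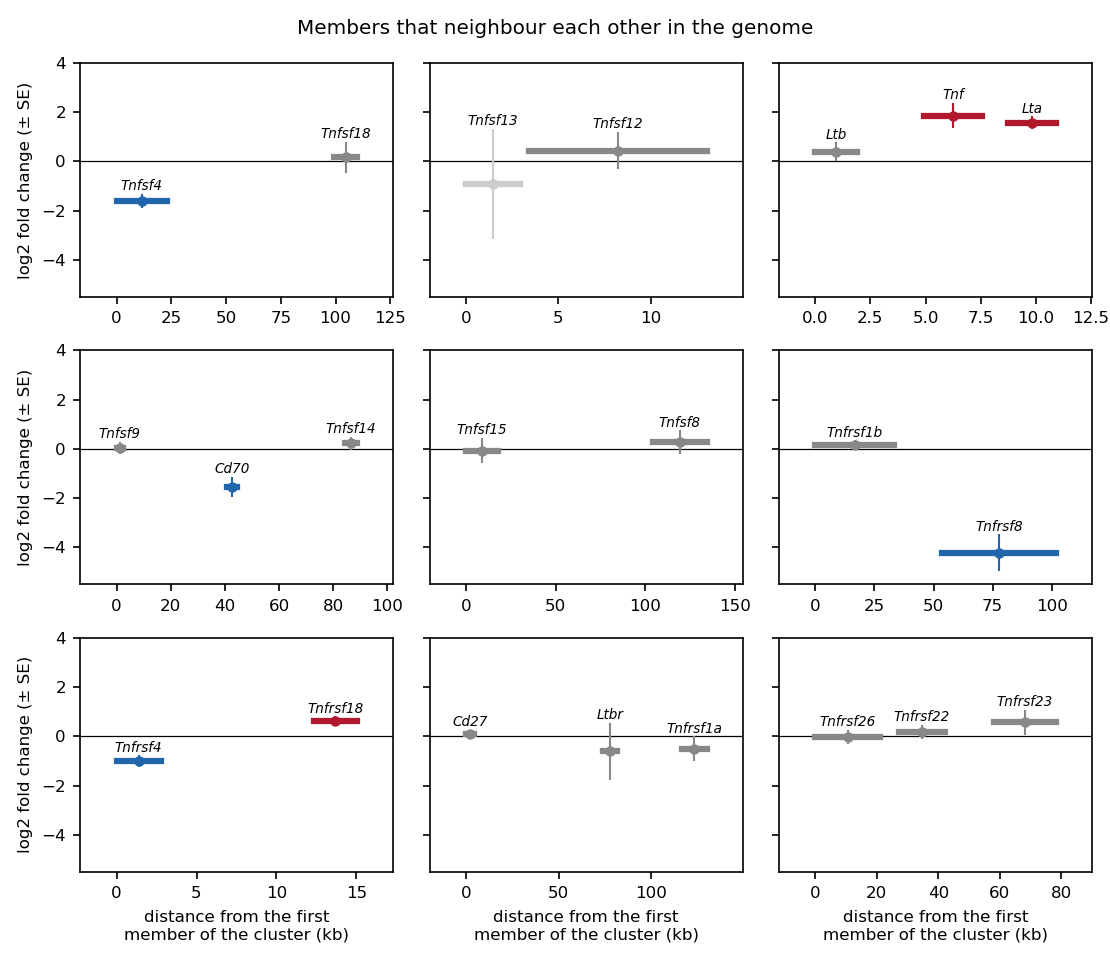
Log2 fold change as deposited (vertical axis, with standard errors) of the 22 members in the 9 genomic clusters, one panel per cluster, against distance in kilobases from the first member (horizontal bars show the extent of each gene), coloured by call and sign as positive (red), negative (blue), not called (dark grey) or without an adjusted p (light grey). Tnfrsf4 and Tnfrsf18 have opposite signs, and Tnf and Lta are both positive beside Ltb.

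Downstream of the receptors, 54 genes of 5 signalling and shedding lists were tested, and 16 (29.6%) were called, 13 positive and 3 negative. Over all tested genes 24.5% were called, 11.0% positive and 13.5% negative. The listed genes had a median mean of 1899 normalized counts and a median standard error of 0.16. Over all tested genes these were 279 and 0.23, in the authors' deposited table, so that the shares called are not compared at like precision. The largest values in the lists belonged to genes that restrain NF-kB or shape its targets. Nfkbid and Nfkbiz, atypical nuclear IkB proteins, had 1.47 ± 0.26 and 1.09 ± 0.18, and Tnfaip3, which encodes the deubiquitinating brake A20, had 0.99 ± 0.17 at a mean normalized count of 127504, in the authors' deposited table. Bcl3, a further atypical IkB gene, lay on the other side at -0.60 ± 0.27 without a call, in the authors' deposited table. Nfkbia (IkB alpha) was positive at 0.48 and Nfkbie (IkB epsilon) negative at -0.44 in the authors' deposited table. The 5 NF-kB subunit genes Nfkb1, Nfkb2, Rel, Rela and Relb were not called, with values between -0.29 and 0.30 in the authors' deposited table. Of the 11 NF-kB genes listed, 4 were thus called, 3 positive and 1 negative.

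Of 15 death domain, caspase-8 and ubiquitin genes, 4 were called. Besides Tnfaip3 these were Cflar, the inhibitor of caspase-8, at 0.75 ± 0.18, the deubiquitinase gene Cyld at 0.36, and Ripk3, the kinase of necroptosis, at -0.71 ± 0.19, in the authors' deposited table. Casp8 and Fadd were not called. Of 10 genes on the TRAF list, which also holds genes of TRAF-binding proteins, 3 were called. They were Traf3ip3 at 0.43 and Traf3ip2 at 0.42, which encode TRAF3-interacting proteins, and Traf1 at -0.35, in the authors' deposited table. Traf1, a TRAF induced by NF-kB, was the only TRAF gene called and had a mean normalized count of 14067 in the authors' deposited table. In the NIK, IAP and IKK module, 2 of 11 genes were called, the IKK subunits Ikbkb and Ikbkg at 0.40 and 0.43, and the kinase gene Map3k7 (TAK1) had -0.49 without a call, in the authors' deposited table. Neither of these was called once trends on transcript length and GC content were removed, when Ikbkb stood at 0.10. Without the filter on low means, Ikbkg, Traf3ip2, Traf1, Nfkbie and Sppl2b were not called either. At a threshold of 0.01, 2 NF-kB genes, 1 gene of the TRAF list (Traf3ip3) and 1 gene of the IKK module were called. So were 3 death domain and caspase-8 genes and 2 shedding genes. With a 2-fold minimum, Nfkbid and Nfkbiz were the called genes, and the other 4 lists had 0 calls. Of 7 shedding genes, 3 were called: Adam17, the protease that releases TNF, at 0.39 ± 0.12, its regulator Rhbdf2 at 0.61 ± 0.19, and Sppl2b, a protease of the remaining TNF stub, at 0.37, in the authors' deposited table. Together with Tnf itself, the gene of its main sheddase was therefore positive, by less than 2-fold.

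**Figure D5:**
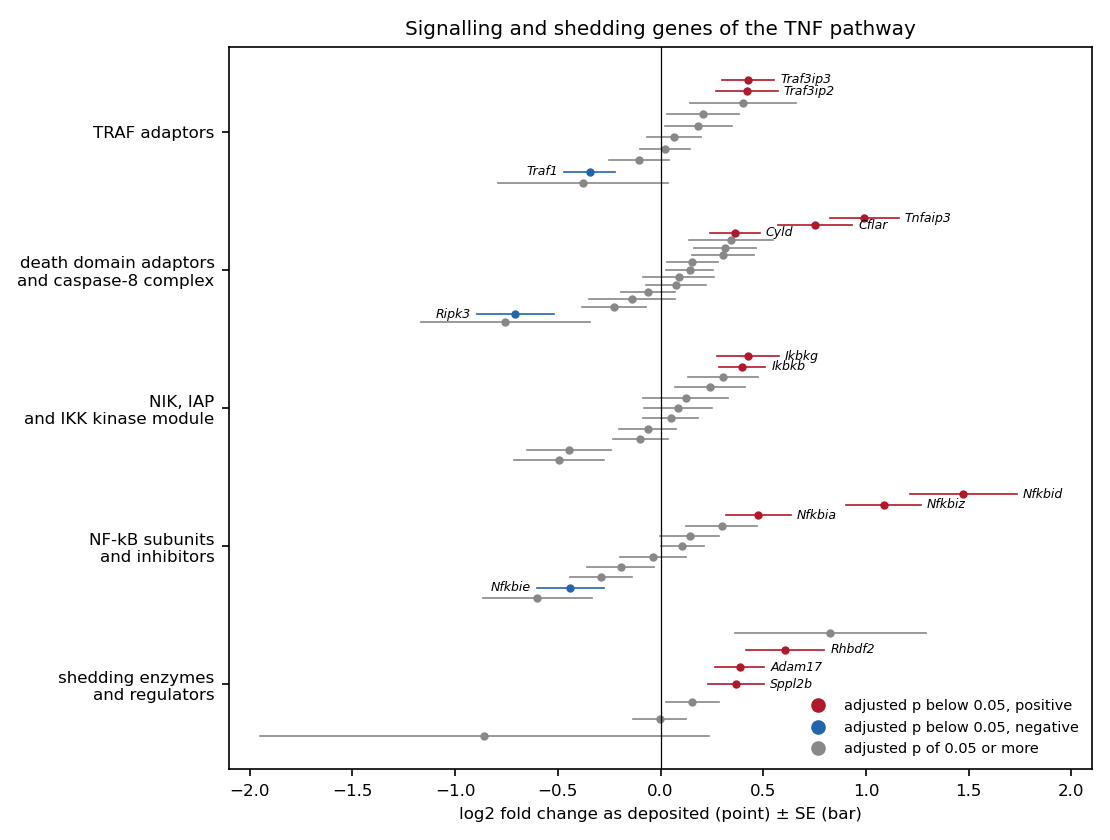
Log2 fold change as deposited (points) with standard errors (bars) for 54 signalling and shedding genes in 5 lists, sorted within each list, with names at called genes. Nfkbid, Nfkbiz and Tnfaip3 lie farthest to the positive side among called genes, and Ripk3 farthest to the negative side.

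Relatives that the name rule does not reach were few in these cells. Of 4 tested, Edaradd, the adaptor of the ectodysplasin receptor, was positive at 1.39 ± 0.37, while Fas, Fasl and Relt had 0.19, 0.32 and -0.34 without a call, in the authors' deposited table. The receptor genes Edar, Eda2r and Ngfr and the ligand gene Eda had means of 1.86 to 10.0 normalized counts in the authors' deposited table and no adjusted p. Of 7 tested genes named for induction by TNF or for likeness to it, Tnfaip8 was positive at 0.62 and Tnfaip6 negative at -2.03, at a mean normalized count of 43.9, and Tnfaip8l1 had -0.50 without a call, in the authors' deposited table. Tnfaip6 was not called at a threshold of 0.01 or without the filter on low means. This list is one of names, and its members do not share a function.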

How the data were processed

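RNA of 3 KO and 3 WT samples of lung ILC2s was sequenced; per the labels, a SMART-Seq HT kit gave full-length cDNA and a TruePrep V2 kit the libraries. HISAT2, Cufflinks and mm10 are named in the submitters' processing notes, without versions. Per the file headers, each gene has a mean normalized count, a signal the authors averaged over libraries. Per the file headers, it also has the authors' log2 fold change and standard error. Per the file headers, the authors added a score for the test, its p-value and, after adjustment, a second p-value. The counting tool, the strand setting and the libraries in the fit are not given here, and the labels' protocol also speaks of cells without IL-33, so that the fit may hold further libraries. A further 12 columns of per-library values, under 6 names, matched no label and were not used. The planned count fit of KO against WT was therefore replaced by the authors' comparison.

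Genes were called at the deposited adjusted p under 0.05, present for 14961 genes with means of at least 10.46. The 95% intervals take the fold change and its standard error as normal, and they are the precision behind each value. An error was ranked among tested genes whose mean lay within 1.25-fold. Levels per kilobase used exonic lengths of GENCODE M21 (mm10), which held 99.3% of the gene identifiers. The adjustment of p-values used in the alternatives was checked on simulated scores drawn from the deposited standard errors. Such a check does not reach the authors' fit or the deposited calls. Pairs, pathway lists and marker lists were written by hand, and the members and lists were chosen with earlier results of these data known. All called members and members with a mean of at least 1000 are given in full, with the 3 smallest p in each list (1 where none was called). Other pathway genes and markers were named after their values were seen. The p-values measure the spread between the libraries of the authors' fit. Scripts used statsmodels 0.14.6, scipy 1.17.1, numpy 2.4.6, pandas 2.3.3 and matplotlib 3.10.9 under Python 3.11.15.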

Additional observations from a re-analysis of the deposited data

How the results depend on the processing

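The count of called members was 13, and 8 alternatives were run on it. At an adjusted p under 0.01 it was 11, without Tnfrsf18 and Tnfsf11, while the count over all genes fell to 2363. With a 2-fold minimum it was 8, of which 3 were positive, against 1142 over all genes. Without the filter on low means it was 12 of 39, without Tnfsf11. It was 13 under a minimum mean of 50, over protein-coding genes, under both centrings (shifts of -0.0056 and -0.0373) and with length and GC trends removed. In all 8 alternatives, 8 of the 13 called members kept their call and sign. Values reversed for 3 uncalled genes: Tnfrsf26 to 0.019 when centred on the most abundant genes and to 0.158 with length and GC trends removed, and Tnfsf15 to 0.088 and Rora to -0.020 with those trends removed; the cause was not tested. No paired analysis was possible because the per-library columns carry no replicate number of the labels, and leaving out each replicate was not run for the same reason. Of the 14 members with means below 100 normalized counts, the 12 tested had a median standard error of 0.61. Over all tested genes it was 0.23, in the authors' deposited table. The part of depth in this was not tested.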
